A study of Mus musculus with 6 samples.

Results

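The KCNQ and HCN channels described here are 5 genes, Kcnq3, Kcnq5, Hcn2, Hcn3 and Hcn4, taken by symbol from a table of 22064 gene rows of which 19306 hold values. They were measured by RNA-Seq in ipsilateral L3-L5 dorsal root ganglia (DRG), which hold the cell bodies of the sensory neurons of the hind limb. The 6 libraries came from wild-type C57BL/6 mice on day 14 after surgery. In the 3 LAS libraries both lateral ligaments of the ankle (ATFL and CFL) had been cut through a small incision to model lateral ankle sprain, and in the 3 sham libraries the incision was made and the ligaments were left whole. The study used young adult mice of both sexes, and neither the sex nor the number of animals behind a library is given in the sources used here, so a p-value reflects how much these libraries vary, which may be partly technical. Levels are FPKM, that is, fragments scaled to transcript length and to the fragments mapped in the library. The paper lists nearly equal totals of reads for the 6 libraries. The values themselves carry no read counts, so the number of reads behind each gene's value is unknown.

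KCNQ genes encode subunits of the M channel, a potassium channel that opens slowly near the resting potential and holds back repetitive firing. Receptors that signal through Gq close it by using up PIP2, a membrane lipid the channel needs to stay open. HCN channels open when the membrane is hyperpolarized and carry an inward cation current that brings the cell back toward threshold, and binding of cyclic AMP makes several of them open more readily. Both currents are studied in DRG neurons for their part in hyperexcitability and pain.

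All 5 genes were expressed in every library, and their levels spanned more than an order of magnitude. Hcn2, a cAMP-sensitive HCN subunit tied to inflammatory and neuropathic pain in mice, was the highest at a mean of 57.0 FPKM over the 6 libraries, above 90.1% of the 14006 genes that passed the filter on low values (at least 0.5 FPKM in at least 3 libraries, which all 5 members passed). Hcn3, a subunit with little response to cAMP, followed at 12.6 FPKM. Kcnq5 and Kcnq3, whose proteins both contribute to M current in neurons, were at 6.01 and 5.50 FPKM. Hcn4, the pacemaker subunit of the sinoatrial node in the heart, was the lowest at 3.90 FPKM.

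The order of levels held in all 6 libraries for most neighbours. Hcn2 was 3.83 to 5.06 times Hcn3 within a library, and Hcn3 was 1.77 to 2.45 times Kcnq5. Kcnq3 was 1.23 to 1.71 times Hcn4, and its lowest library, at 5.03 FPKM, lay above the highest library for Hcn4, at 4.39 FPKM. Kcnq5 and Kcnq3 were the pair not separated by their spread, since Kcnq5 was the higher in 5 of 6 libraries and ranged over 5.11 to 6.83 FPKM and Kcnq3 over 5.03 to 5.95 FPKM. Between the ends of the order, Hcn2 was 13.3 to 19.3 times Hcn4. The spread between libraries does not hold errors that all of them share, such as in the transcript length taken for a gene.

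**Figure D1:**
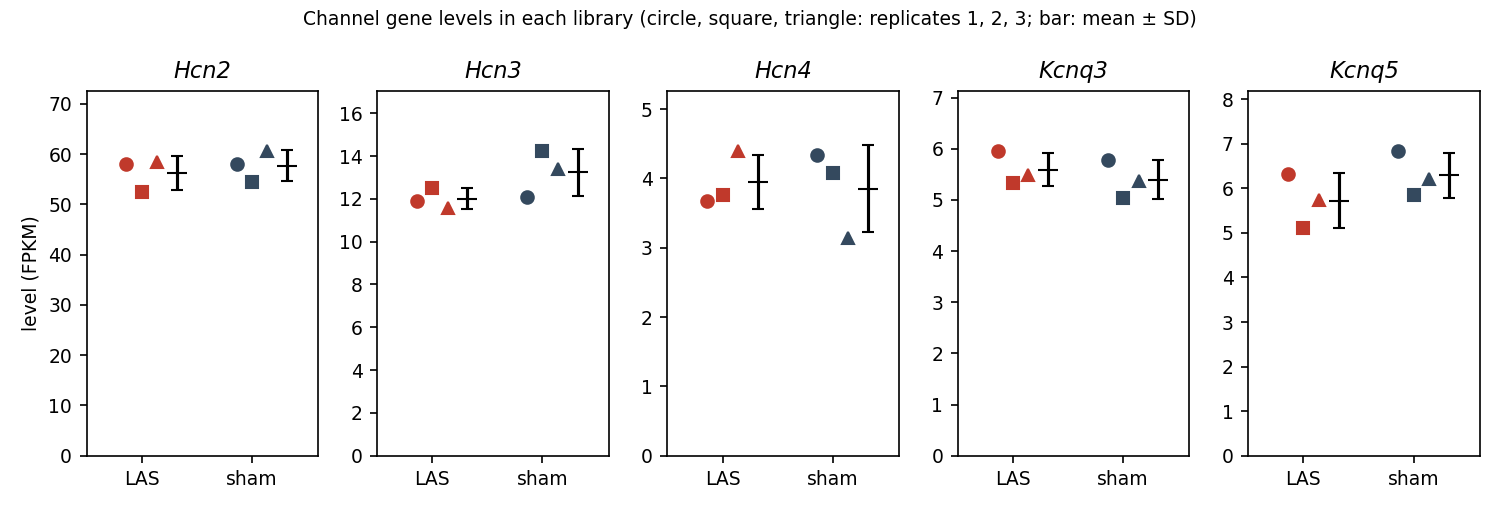
Level of each gene in FPKM (vertical axes, from 0, one scale per gene) in the 3 LAS and 3 sham libraries, with replicates 1, 2 and 3 as circle, square and triangle and the mean ± SD beside them. The LAS and sham points overlap for all 5 genes, and Hcn2, at 52.37 to 60.53 FPKM, sits far above Hcn4, at 3.14 to 4.39 FPKM.

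The start regions of the highest and the lowest member are shown so that the sequence upstream of Hcn2 and Hcn4 can be read beside their levels. They are the 250 bases before the annotated start, from RefSeq on GRCm38.p6, with each GC box (GGGCGG, read on both strands, so also CCGCCC) in capitals. The Hcn2 window lies at chr10:79716384-79716633 and the Hcn4 window at chr9:58822699-58822948, both on the plus strand.
Hcn2: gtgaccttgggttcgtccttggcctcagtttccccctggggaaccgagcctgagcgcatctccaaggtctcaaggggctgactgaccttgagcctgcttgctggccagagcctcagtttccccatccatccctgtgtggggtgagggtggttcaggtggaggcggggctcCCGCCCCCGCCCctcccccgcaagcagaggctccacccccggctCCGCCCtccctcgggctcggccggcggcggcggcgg
Hcn4: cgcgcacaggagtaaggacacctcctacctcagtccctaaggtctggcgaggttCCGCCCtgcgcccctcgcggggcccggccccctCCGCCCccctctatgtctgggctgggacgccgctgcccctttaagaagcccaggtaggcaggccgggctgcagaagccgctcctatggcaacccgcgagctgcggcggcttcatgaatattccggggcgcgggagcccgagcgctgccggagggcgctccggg
The Hcn2 window held 3 GC boxes, of which a pair abut, and the Hcn4 window held 2. Of 32851 promoter windows of this length in the table, 32.7% held at least 1. The windows were 70.4% and 71.2% G or C, above 91.2% and 92.2% of all windows, and neither held a TATAAA (on either strand, found in 12.4% of windows). Both Kcnq5 windows in the table held 0 GC boxes, and Kcnq3 and Hcn3 had no entry. A match is a description of letters and not a measured binding site.

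The comparison of LAS with sham asked whether ankle sprain was accompanied by a change in the RNA of these channels on day 14. None of the 5 genes differed between the groups beyond the spread of the libraries, and none moved by as much as 1.5-fold. The test was limma on log2(FPKM + 0.1), with p-values adjusted over all tested genes after Benjamini and Hochberg, and a call needed an adjusted p of at most 0.05 together with a 1.5-fold difference. At this rule 0 of 5 members were called, as were 0 of 14006 genes in either direction (0% higher and 0% lower). At an unadjusted p of at most 0.05 from limma 0 of 5 members passed, where 3.53% of all tested genes did. The libraries of the groups overlapped for all 5 members, while they did not overlap for 9.7% of all tested genes.

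Hcn2 was at 57.93, 52.37 and 58.42 FPKM in LAS replicates 1, 2 and 3, against 58.00, 54.50 and 60.53 FPKM in sham replicates 1, 2 and 3. Replicate 2 was the lowest library in each group, and the groups overlapped. The mean was 56.2 ± 3.36 FPKM in LAS and 57.7 ± 3.03 FPKM in sham libraries (SD, n = 3 each). The log2 fold change was -0.04 (limma adjusted p = 1.00, standard error 0.07), and its 95% interval, as a fold of LAS over sham, ran over 0.87 to 1.09.

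Hcn3 was at 11.92, 12.52 and 11.55 FPKM in LAS libraries, against 12.08, 14.22 and 13.41 FPKM in sham libraries. LAS replicates 1 and 3 lay below every sham library, and LAS replicate 2 lay between sham replicates 1 and 3. The mean was 12.0 ± 0.49 FPKM in LAS and 13.2 ± 1.08 FPKM in sham libraries (SD, n = 3 each), with a log2 fold change of -0.14 (limma adjusted p = 1.00, standard error 0.08). The fold interval was 0.80 to 1.03. Hcn3 had the smallest unadjusted p of the members from limma, and 9.59% of all tested genes had a smaller one. Without sham replicate 1 the unadjusted p was 0.0364 and the log2 fold change -0.20, still with an adjusted p of 0.94 from limma. Hcn3 shares 711 exonic bases with Pklr on the other strand (GENCODE M21), whose own level was at most 0.26 FPKM, and whether strand was used in counting is not given in the sources used here.

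Hcn4 was at 3.68, 3.76 and 4.39 FPKM in LAS libraries, against 4.34, 4.08 and 3.14 FPKM in sham libraries. Sham replicate 3 held the lowest level and LAS replicate 3 the highest, and the groups crossed. The mean was 3.94 ± 0.39 FPKM in LAS and 3.85 ± 0.63 FPKM in sham libraries (SD, n = 3 each). The log2 fold change was 0.04 (limma adjusted p = 1.00, standard error 0.14), and the fold interval, the widest of the 5, was 0.82 to 1.30. It became -0.10 without sham replicate 3 and -0.04 without LAS replicate 3, so its sign turned with either of these libraries left out. Sham replicate 3 stood apart in other ways: its summed level of 11 skeletal muscle markers was 2377 FPKM, against 107 to 354 FPKM in LAS libraries and 109 and 313 FPKM in the other sham libraries, and all 10 neutrophil markers were highest there. The part of these cells in the Hcn4 value was not tested.

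Kcnq3 was at 5.95, 5.34 and 5.49 FPKM in LAS libraries, against 5.79, 5.03 and 5.37 FPKM in sham libraries. Replicate 1 was the highest and replicate 2 the lowest in each group. The mean was 5.59 ± 0.32 FPKM in LAS and 5.40 ± 0.38 FPKM in sham libraries (SD, n = 3 each), with a log2 fold change of 0.05 (limma adjusted p = 1.00, standard error 0.09) and a fold interval of 0.90 to 1.19.

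Kcnq5 was at 6.33, 5.11 and 5.73 FPKM in LAS libraries, against 6.83, 5.84 and 6.20 FPKM in sham libraries. As for Kcnq3, replicate 1 was the highest and replicate 2 the lowest in each group, and LAS replicates 2 and 3 lay below every sham library. The mean was 5.72 ± 0.61 FPKM in LAS and 6.29 ± 0.50 FPKM in sham libraries (SD, n = 3 each), with a log2 fold change of -0.14 (limma adjusted p = 1.00, standard error 0.10) and a fold interval of 0.77 to 1.08. Kcnq5 shares 237 exonic bases with Gm26580 on the other strand, for which no level was found under that symbol. Its part in the Kcnq5 level, and in ratios that use Kcnq5, was not tested.

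**Figure D2:**
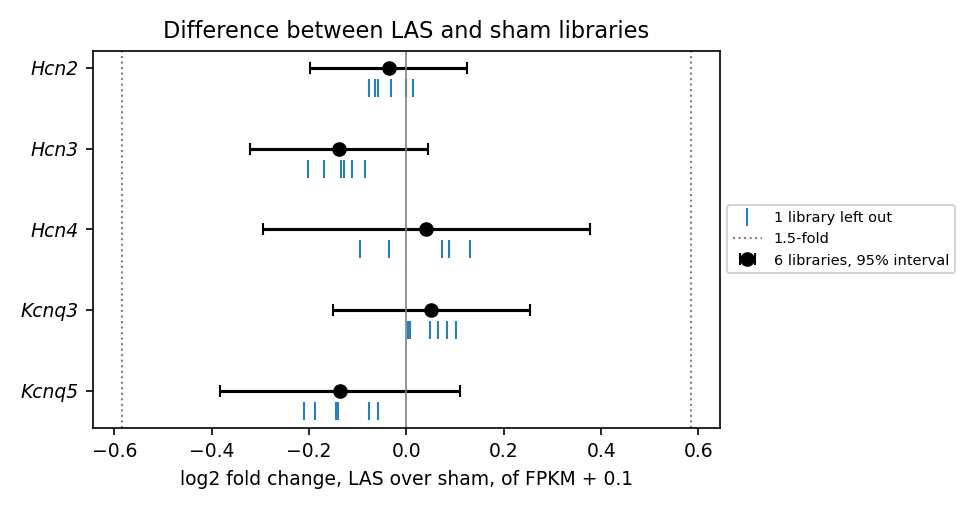
Log2 fold change of LAS over sham on FPKM + 0.1 (horizontal axis) for each gene, as a black point with its 95% interval from limma, and the same value with 1 library left out as blue ticks. Every interval of the 6-library fit includes 0 and lies inside the dotted lines at 1.5-fold, the widest being that of Hcn4 at -0.29 to 0.38.

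The intervals bound how large a change these libraries leave room for. Over all 5 genes the 6-library intervals ran, as folds of LAS over sham, over 0.77 for Kcnq5 at the lowest to 1.30 for Hcn4 at the highest. With other settings or 1 library left out, the extremes were 0.72 for Kcnq5 without sham replicate 2 and 1.42 for Hcn4 without sham replicate 1. The members varied to different degrees between libraries. The highest library was 1.16 times the lowest for Hcn2, 1.18 for Kcnq3, 1.23 for Hcn3, 1.34 for Kcnq5 and 1.40 for Hcn4. The residual SD (log2) of Hcn4 was above that of 75.1% of tested genes and that of Kcnq5 above 54.7%, while those of Kcnq3, Hcn2 and Hcn3 were above 30.7%, 25.7% and 32.5%. Its median over the members was 0.093, against 0.124 over all tested genes. Their median log2 fold change was -0.04, with 3 of 5 lower in LAS libraries, against 0.0043 over all tested genes, of which 48.3% were lower.

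Ratios between members within a library do not depend on how the library was scaled, so 4 of them were compared between the groups. The balance of the KCNQ pair was the ratio in which the groups did not overlap. Kcnq3 over Kcnq5 was 0.940, 1.05 and 0.958 in LAS replicates 1, 2 and 3, against 0.848, 0.861 and 0.866 in sham replicates 1, 2 and 3. Kcnq3 was thus below Kcnq5 in LAS replicates 1 and 3 and in all sham libraries, and above it in LAS replicate 2. The sham ratios lay close together. On the log2 scale the ratio was -0.029 ± 0.081 in LAS and -0.22 ± 0.016 in sham libraries (SD, n = 3 each), a difference of 0.19. The exact permutation test (two-sided) gave p = 0.10, the smallest that 3 libraries against 3 allow, and 0.90 after Benjamini-Hochberg adjustment over the 9 values of this family (4 ratios and 5 levels relative to neuron markers). Of the 9 values, 1 had groups that did not overlap, beside 9.7% of all tested genes. The difference in the log2 ratio of Kcnq3 over Kcnq5 was 0.14 to 0.22 when each library was left out in turn.

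The groups overlapped in the mix of HCN transcripts. Of the summed FPKM of Hcn2, Hcn3 and Hcn4, Hcn2 made up 78.8%, 76.3% and 78.6% in LAS replicates 1, 2 and 3, against 77.9%, 74.9% and 78.5% in sham replicates 1, 2 and 3. Hcn4 made up 5.46 ± 0.45% in LAS and 5.17 ± 0.96% in sham libraries (SD, n = 3 each, exact permutation p = 0.80, two-sided). The log2 ratio of Hcn2 over Hcn3 was 2.23 ± 0.14 in LAS and 2.13 ± 0.17 in sham libraries (SD, n = 3 each, exact permutation p = 0.50, two-sided). The log2 ratio of the summed HCN members over the summed KCNQ members was 2.68 ± 0.081 in LAS and 2.68 ± 0.10 in sham libraries (SD, n = 3 each, exact permutation p = 0.90, two-sided).

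**Figure D3:**
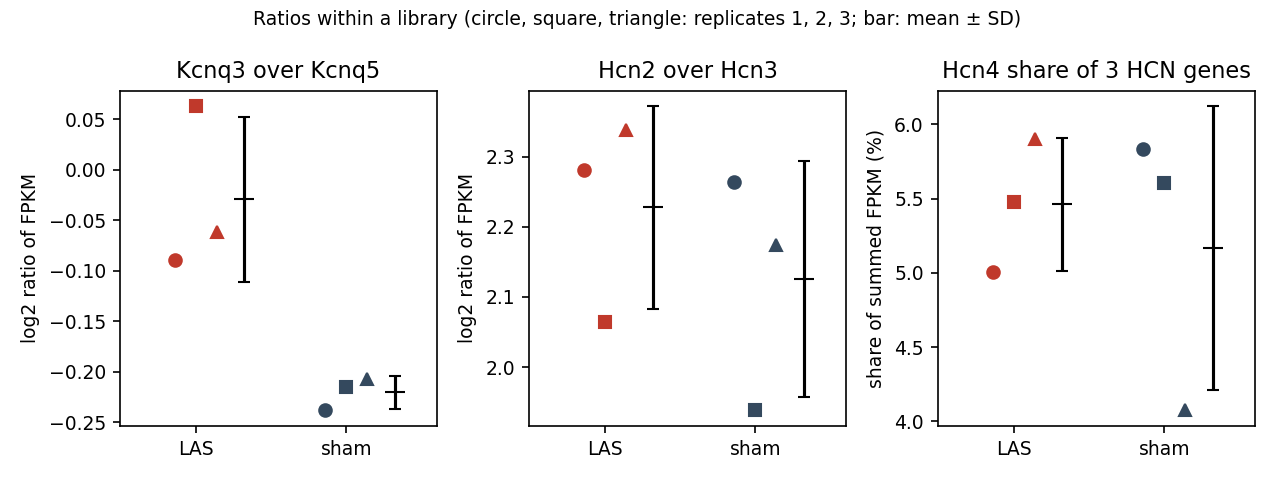
Ratios within each library for the 3 LAS and 3 sham libraries, as log2 ratios of FPKM (left and middle) or percent of the summed FPKM of Hcn2, Hcn3 and Hcn4 (right), with mean ± SD and axes that do not start at 0. The LAS and sham points are apart for Kcnq3 over Kcnq5, at -0.089 to 0.064 against -0.24 to -0.21, and overlap in the other panels.

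In bulk tissue, fewer cells of a type and less RNA per cell cannot be told apart. The members were also read relative to 12 markers of sensory neurons, all of which passed the filter. The markers are bulk levels as well, so the relative levels do not tell these apart either. Uchl1, a ubiquitin hydrolase of neurons, was at 2170 ± 45.1 FPKM in LAS and 2196 ± 125 FPKM in sham libraries (SD, n = 3 each), and Tubb3, a neuronal tubulin, at 1754 ± 28.9 FPKM in LAS and 1751 ± 56.6 FPKM in sham libraries (SD, n = 3 each). The 12 markers summed to 7266 to 7445 FPKM in LAS and 7153 to 7605 FPKM in sham libraries. Relative to their mean log2 level, the difference of LAS minus sham was -0.16 for Hcn3 (exact permutation p = 0.20, two-sided) and -0.16 for Kcnq5 (p = 0.30 in the same exact test), with overlapping groups. Hcn2 differed by -0.06, Kcnq3 by 0.03 and Hcn4 by 0.02, and none of the 5 passed after adjustment (adjusted p = 0.90 for each).

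Markers of neuron classes and of other cells of the ganglion were read in the same libraries, and none of the listed markers was at 0 in all of them. The 10 markers of large myelinated neurons summed to 4381 to 5223 FPKM in LAS and 4817 to 5247 FPKM in sham libraries. Pvalb, a calcium-binding protein of proprioceptors and of fast muscle, stands on both this list and the skeletal muscle list, and it was at 55.88 to 90.55 FPKM in LAS libraries, against 75.74, 65.64 and 243.23 FPKM in sham replicates 1, 2 and 3. The 13 markers of small nociceptors summed to 1763 to 1935 FPKM in LAS and 1772 to 1897 FPKM in sham libraries, so both classes overlapped between the groups. The 9 markers of myelinating Schwann cells read here summed to 2064 to 3151 FPKM in LAS and 2458 to 2728 FPKM in sham libraries. Of these, 6 were higher and 3 lower in LAS libraries, with log2 fold changes of -0.88 to 0.27 and 0 called. LAS libraries lay wholly below sham libraries for 1 of the 9, beside 9.7% of all tested genes without overlap in either direction. At an unadjusted p of at most 0.05 from limma 1 of the 9 passed, beside 3.53% of all tested genes. Mbp, a myelin protein, was at 1293 ± 324 FPKM in LAS and 1148 ± 45.1 FPKM in sham libraries (SD, n = 3 each). Of the 9 satellite glia markers, 5 were higher and 4 lower in LAS libraries, with a median log2 fold change of 0.06 and 0 called. Their log2 fold changes ran over -0.77 to 0.19. For 2 of the 9, Apoe among them, LAS libraries lay wholly below sham libraries, and 1 of the 9 had an unadjusted p of at most 0.05 from limma. The shares over all tested genes, in either direction, were 9.7% and 3.53%. The satellite glia sum of 2716 to 2897 FPKM in LAS and 2940 to 3122 FPKM in sham libraries was mostly Apoe, a lipoprotein made by these glia. Apoe was at 2279 to 2420 FPKM in LAS and 2446 to 2612 FPKM in sham libraries (limma adjusted p = 1.00). Glul, the glutamine synthetase of these cells and the next most abundant, was at 150 ± 10.6 FPKM in LAS and 143 ± 5.33 FPKM in sham libraries (SD, n = 3 each). Vessel markers were low, with 8 endothelial markers summing to 44.9 to 60.4 FPKM in LAS and 42.2 to 51.9 FPKM in sham libraries, and 8 of smooth muscle to 61.2 to 99.1 FPKM in LAS and 65.0 to 97.9 FPKM in sham libraries. The 8 macrophage markers summed to 63.9 to 99.7 FPKM in LAS and 51.1 to 231 FPKM in sham libraries, highest in sham replicate 3. That sum was mostly Lyz2, at 47.94 to 82.83 FPKM in LAS and 37.43 to 209.65 FPKM in sham libraries. Of the 8 macrophage markers, 3 were highest in sham replicate 3. The 7 red cell markers summed to 4962 to 6432 FPKM in LAS and 3620 to 14165 FPKM in sham libraries, and all 7 were highest in sham replicate 3. The 10 leptomeningeal markers summed to 506 to 1526 FPKM in LAS and 455 to 558 FPKM in sham libraries, the highest being LAS replicate 2, which was also the library with the lowest Hcn2 and Kcnq5. The part of these cells in the channel levels was not tested.

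No gene that acts on KCNQ channels was called. Of 15 listed partners that bind, anchor or regulate KCNQ proteins, 11 were tested, 0 were called in either direction and 9 had a higher mean in LAS libraries, with a median log2 fold change of 0.04. Calm2 and Calm3, which encode the calmodulin bound to the channel's C-terminus, were the most abundant. Calm2 was at 753 ± 52.2 FPKM in LAS and 733 ± 80.2 FPKM in sham libraries (SD, n = 3 each). Calm3 was at 665 ± 18.4 FPKM in LAS and 644 ± 14.2 FPKM in sham libraries (SD, n = 3 each). Csnk2a1, a catalytic subunit of casein kinase that phosphorylates calmodulin, was singled out on its values and was the one partner whose groups did not overlap. It was at 33.75, 31.71 and 32.91 FPKM in LAS libraries, against 30.01, 30.16 and 29.36 FPKM in sham libraries, with a log2 fold change of 0.14 (limma adjusted p = 1.00, standard error 0.05).

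Genes of the Gq and PIP2 pathway, which closes M channels, numbered 18 tested of 23 listed, with 0 called, 9 higher and 9 lower in LAS libraries and a median log2 fold change of 0.0081. Plcb3, a phospholipase C that cleaves PIP2, was at 124 ± 11.4 FPKM in LAS and 136 ± 22.2 FPKM in sham libraries (SD, n = 3 each). Pip5k1c, a kinase that makes PIP2, was at 65.4 ± 0.54 FPKM in LAS and 67.5 ± 2.01 FPKM in sham libraries (SD, n = 3 each). The groups did not overlap for 2 of the 18, both singled out after their values were seen. Pip5k1b, another PIP2 kinase, was at 4.94 to 5.49 FPKM in LAS and 4.83 to 4.88 FPKM in sham libraries. Chrm3, a muscarinic receptor coupled to Gq, was at 0.47 to 0.54 FPKM in LAS and 0.59 to 0.67 FPKM in sham libraries, near the filter.

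Of 10 HCN partners with a row, 9 were tested and 0 called, with 5 higher and 4 lower in LAS libraries and a median log2 fold change of 0.0038. Pex5l, which encodes TRIP8b, the auxiliary subunit that sets HCN trafficking and cAMP response, was at 41.3 ± 0.65 FPKM in LAS and 39.8 ± 3.69 FPKM in sham libraries (SD, n = 3 each). Cav1, which encodes the membrane protein caveolin, was at 43.8 ± 8.16 FPKM in LAS and 37.7 ± 4.80 FPKM in sham libraries (SD, n = 3 each). Kctd3 and Mrvi1, chosen after their values were seen, were the 2 of 9 whose groups did not overlap. Kctd3, which binds Hcn3, was at 11.98 to 12.33 FPKM in LAS and 12.35 to 12.44 FPKM in sham libraries. Mrvi1 was at 1.39 to 1.55 FPKM in LAS and 1.12 to 1.35 FPKM in sham libraries.

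Of the 31 listed genes that set cAMP levels, 30 were tested and 0 called, with 17 higher and 13 lower in LAS libraries and a median log2 fold change of 0.03. Gnas, which encodes the stimulatory G protein, was at 1414 ± 3.83 FPKM in LAS and 1472 ± 63.6 FPKM in sham libraries (SD, n = 3 each). Gnai2, an inhibitory G protein, was at 208 ± 10.3 FPKM in LAS and 213 ± 18.8 FPKM in sham libraries (SD, n = 3 each). The groups did not overlap for 5 of the 30, Gnas, Adcy8, Pde4a, Pde4d and Pde1a. The last 4 were named after their values were seen. Adcy8, a calcium-stimulated adenylyl cyclase, was at 2.12, 2.04 and 2.56 FPKM in LAS libraries, against 2.75, 2.70 and 2.68 FPKM in sham libraries (log2 fold change -0.27, limma adjusted p = 1.00, standard error 0.12). Pde1a, a calmodulin-dependent phosphodiesterase, was at 2.34, 3.04 and 3.02 FPKM in LAS libraries, against 2.33, 2.13 and 1.85 FPKM in sham libraries (log2 fold change 0.39, limma adjusted p = 1.00, standard error 0.15). Pde4a and Pde4d, both cAMP-specific phosphodiesterases, lay on opposite sides, with Pde4a below in LAS libraries (log2 fold change -0.08) and Pde4d above (0.09).

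Other slow potassium channels, which share with KCNQ channels the task of limiting firing, had 16 tested genes of 18 listed, 0 called, 11 higher and 5 lower in LAS libraries and a median log2 fold change of 0.03. Kcnt1, a sodium-activated potassium channel, was at 48.2 ± 2.34 FPKM in LAS and 49.5 ± 5.80 FPKM in sham libraries (SD, n = 3 each). The groups did not overlap for Kcnma1 and Kcnh7, chosen after their values were seen. Kcnh7, an ERG-type channel, was at 13.50, 12.86 and 13.24 FPKM in LAS libraries, against 12.15, 11.43 and 9.87 FPKM in sham libraries (log2 fold change 0.25, limma adjusted p = 1.00, standard error 0.09). Kcnma1, the large-conductance calcium-activated channel, was at 5.49 to 5.62 FPKM in LAS and 4.41 to 5.46 FPKM in sham libraries. Across the 5 pathway lists, groups failed to overlap in 1 of 11, 2 of 18, 2 of 9, 5 of 30 and 2 of 16 tested genes, beside 9.7% of all tested genes, and at an unadjusted p of at most 0.05 the counts were 1, 0, 0, 1 and 1, beside 3.53%.

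**Figure D4:**
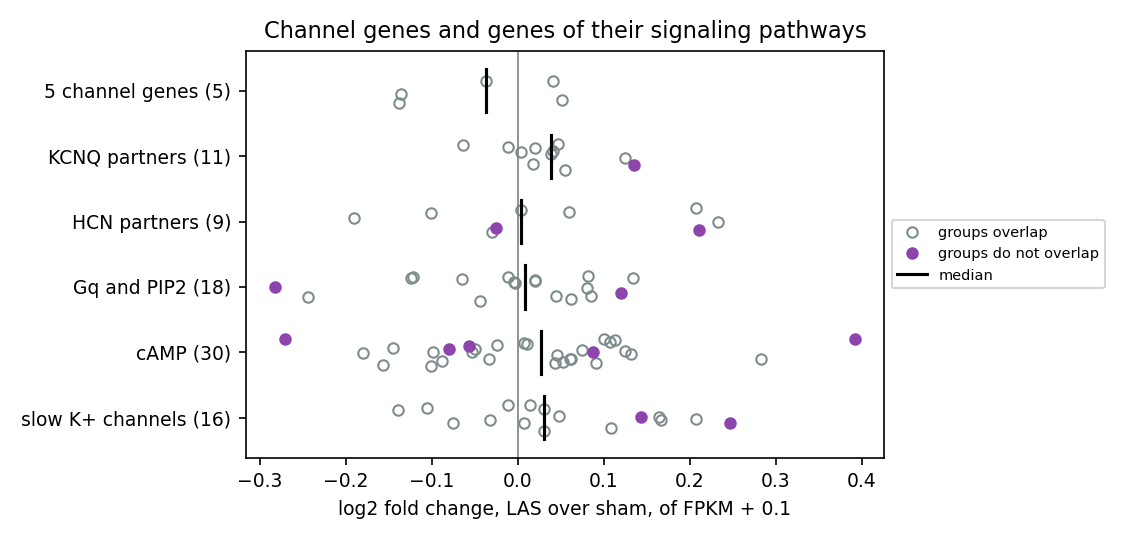
Log2 fold change of LAS over sham on FPKM + 0.1 (horizontal axis) for the 5 channel genes and for the tested genes of the 5 pathway lists, 1 point per gene, with the number tested in brackets, filled where the LAS and sham libraries do not overlap. The medians, drawn as black bars, lie between -0.04 and 0.04, and the point farthest from 0 is Pde1a at 0.39.

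The genes whose levels followed each member most closely over the 6 libraries were found by Pearson's r of log2(FPKM + 0.1), among tested genes with a mean of at least 1 FPKM. With 12998 genes and 6 libraries some high values always arise, and r was above 0.9 for 0.35% of genes with Kcnq3 and 2.13% with Hcn4. Hcn2 was followed most closely by Flt3 (r = 0.992), Clec2l (r = 0.992) and Relt (r = 0.989). Hcn3 was followed by Top3b (r = 0.987), Sco2 (r = 0.967) and Usp30 (r = 0.966), and Hcn4 by Sec22c (r = 0.991), Agap1 (r = 0.989) and Prickle2 (r = 0.987). Kcnq3 was followed by Fam71e1 (r = 0.990), LOC108169010 (r = 0.989) and Esf1 (r = 0.989), and Kcnq5 by Hspa5 (r = 0.980) and Eftud2 (r = 0.972), among others. Likeness of shape is not likeness of size, since LOC108169010 ranged over 0.34 to 6.60 FPKM in the libraries where Kcnq3 ranged over 5.03 to 5.95 FPKM. All these values share libraries and their scaling.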

How the data were processed

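RNA of ipsilateral L3-L5 DRG on day 14 was measured in 6 libraries, 3 from LAS model mice and 3 from sham mice, matched to groups by their titles. After sequencing on a BGISEQ-500 and alignment to mouse, the authors deposited gene-level FPKM to 2 decimals. For the aligner, build, annotation and use of strand, nothing is given in the sources used here. The deposited table also has 3 columns of the authors' own LAS comparison (p-value, q-value, log2 fold change), which were not used. Of 22064 rows, 2758 blank in every library were left out.

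log2(FPKM + 0.1) was compared by limma 3.58.1 (R 4.3.3), with its variance allowed to depend on the mean, over the 14006 genes that reached 0.5 FPKM in 3 or more libraries, and p-values were adjusted by Benjamini-Hochberg over all of them. Methods for read counts could not be applied to FPKM. The pseudocount shrinks the fold of weakly expressed genes. Ratios used exact permutation tests (SciPy 1.17.1). The limma step was also run on simulated data with noise drawn independently for each gene. Effects shared by the genes of a library were not simulated.

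Named genes are the 5 members, the 2 most abundant genes of a list and the 3 genes most like each member, besides genes said to be chosen after their values were seen. For most cell type lists the summed level is given in place of genes. A few genes of the lists and rule are not reported here. The members and lists were chosen with earlier results of these data known. Alternatives covered the pseudocount (0.01 and 1), the filter, scaling, the variance model, library weights, a replicate block, the fold minimum, the marker list and leaving out each library.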

Additional observations from a re-analysis of the deposited data

How the results depend on the processing

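No channel gene was called under any of the alternatives, and 0 genes of the whole table were called in each, also at an absolute log2 fold change of at least 1.5. The paper, which names edgeR and limma-voom, reports differentially expressed genes in both directions. The count of 0 therefore belongs to limma on the log2 FPKM values used here. The limma counts at an unadjusted p of at most 0.05 were 495 genes over the 6 libraries, 1425 without sham replicate 3 and 321 with the replicate block. Kcnq3, Kcnq5 and Hcn3 kept their direction throughout. With array quality weights, which gave sham replicate 3 a weight of 0.21, Hcn2 turned to 0.015 and Hcn4 to -0.019. When each library was left out in turn, the log2 fold change ranged over 0.0029 to 0.10 for Kcnq3, -0.21 to -0.059 for Kcnq5, -0.077 to 0.014 for Hcn2, -0.20 to -0.085 for Hcn3 and -0.096 to 0.13 for Hcn4, and Hcn2 changed sign only without LAS replicate 2. In the same way the difference in the log2 ratio of Hcn2 over Hcn3 ranged over 0.0091 (without sham replicate 2) to 0.18 (without LAS replicate 2), that in the Hcn4 share over -0.26 to 0.62 percentage points and that in the log2 ratio of HCN over KCNQ members over -0.064 to 0.042. Relative to the neuron markers, Kcnq3 ranged over -0.030 to 0.089, Kcnq5 over -0.22 to -0.077, Hcn2 over -0.11 to -0.0049, Hcn3 over -0.22 to -0.12 and Hcn4 over -0.11 to 0.12. Hcn2 turned to 0.035 relative to the 10 markers of large myelinated neurons and was at -0.020 relative to 9 of them without Pvalb, an alternative chosen after seeing the data. The cause of these changes of sign was not tested.

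The library titles do not say whether equal replicate numbers mark pairs. The correlations of deviations from the group mean were -0.41, 0.24 and -0.15 for numbers 1, 2 and 3. Between libraries of unlike number they ranged from -0.29 (LAS replicate 2 with sham replicate 3) to 0.43 (LAS replicate 1 with sham replicate 3). With 3 libraries per group these values cannot settle whether the libraries were paired. With the replicate block the log2 fold changes were the same by construction, and the adjusted p was 1.00 for each member (limma). With FPKM alone the number of reads behind a gene's value is unknown, so the precision it allows cannot be given. The 3 libraries per group set the width of the intervals.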
